A study of Mus musculus with 6 samples.

Results

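Axonemal dynein and dynein assembly genes were described in round spermatids of mice that carried the genotype labelled Eif5a SKO and of wild-type mice. The genes were taken by symbol: axonemal dynein heavy, intermediate and light chains, the docking complex that holds the outer arms, and the factors that assemble dynein before it enters the flagellum. The symbols matched 32 of the 22770 genes in the table of counts, and all 32 passed the filter on low counts, as did 19776 genes in all. Of the 32 members, 14 encode heavy chains and 18 encode smaller subunits or helper proteins. The heavy chain messages are 12009 to 16685 bases long, and the other 18 are 1011 to 5727 bases long.

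The study holds 6 Smart-seq2 libraries of polyadenylated RNA, 3 per genotype, from round spermatids sorted at postnatal day 28 and mostly at step 8. Round spermatids are the haploid germ cells in which the flagellum starts to grow. SKO is not expanded in the labels, the deposited columns name the same libraries cKO, with the strain and any Cre driver not given in the sources used here. Nothing in the labels says whether the 3 libraries of a genotype came from separate animals, so p-values measure only the spread between these libraries, which may be technical. EIF5A is a translation factor that keeps ribosomes moving where peptide bonds form slowly, proline runs among them.

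Axonemal dyneins are the motors that make cilia and sperm tails beat. Each outer or inner arm is built around heavy chains, which hold the ATPase motor, with intermediate and light chains at the base. Arms are preassembled in the cytoplasm by chaperones and dedicated assembly factors, and the outer arms then attach to the doublet microtubules through a docking complex. In mammals, sperm and motile cilia use different outer arm heavy chains: DNAH8 and DNAH17 are the sperm forms, and DNAH5 and DNAH9 are best known from motile cilia.

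Library totals ran from 52055193 to 60970931 counts, with 21177 to 22006 genes detected. Eif5a was 659.7 ± 42.3 CPM (counts per effective library size, mean ± SD, n = 3) in wild type against 6.17 ± 0.77 CPM in SKO. Round spermatid markers were abundant, with a summed level of 4607 to 5038 CPM over 10 genes in wild type and 6365 to 7162 CPM in SKO. Markers of Sertoli cells, the somatic cells that surround germ cells, summed to 43.2 to 160.4 CPM in SKO and 1.82 to 9.28 CPM in wild type over 5 tested genes, 5 of them higher. Leydig cell markers were 8.02 to 44.6 CPM in SKO and 1.26 to 21.6 CPM in wild type, with 3 of 6 higher. Elongating spermatid markers summed to 4810 to 5898 CPM against 3416 to 3678 CPM, with 6 of 9 higher and none lower, and of 10 spermatocyte markers 1 was higher and 3 were lower. The part of these shifts in the dynein values was not tested. SKO replicate 3 stood apart from the other SKO libraries, where a chi-square test of counts gave 142 to 147 per degree of freedom, against 14.7 to 38.8 for the other pairs of one genotype.

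The dynein genes did not move as one block. By edgeR's quasi-likelihood test on all 19776 genes, at a Benjamini-Hochberg adjusted p under 0.05, 5 members were higher in SKO, 9 were lower and 18 did not pass. Over all genes tested, 21.2% were higher and 20.9% lower, so the 14 called members of 32 stand beside 42.0% of genes called in either direction. The SKO and wild-type values did not overlap for 23 members, 12 of them with SKO lower and 11 with SKO higher, where 28.3% and 27.3% of all genes (55.6% together) had such groups. The 14 heavy chains had a median log2 fold change (SKO against wild type, also written as log2 difference) of 0.29, with 2 higher and 1 lower. The other 18 members had a median of -0.25, with 3 higher and 8 lower, and the median of all tested genes was 0.01. Whether heavy chains and other members differed was not tested. With library totals as the only scaling, which moved the median of all genes to -0.23, 1 member was higher and 13 were lower, and the heavy chain median was 0.054. Of all 19776 genes, 2831 were higher and 5666 lower under that scaling. In bulk RNA, fewer cells of a type and less RNA per cell cannot be told apart.

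**Figure D1:**
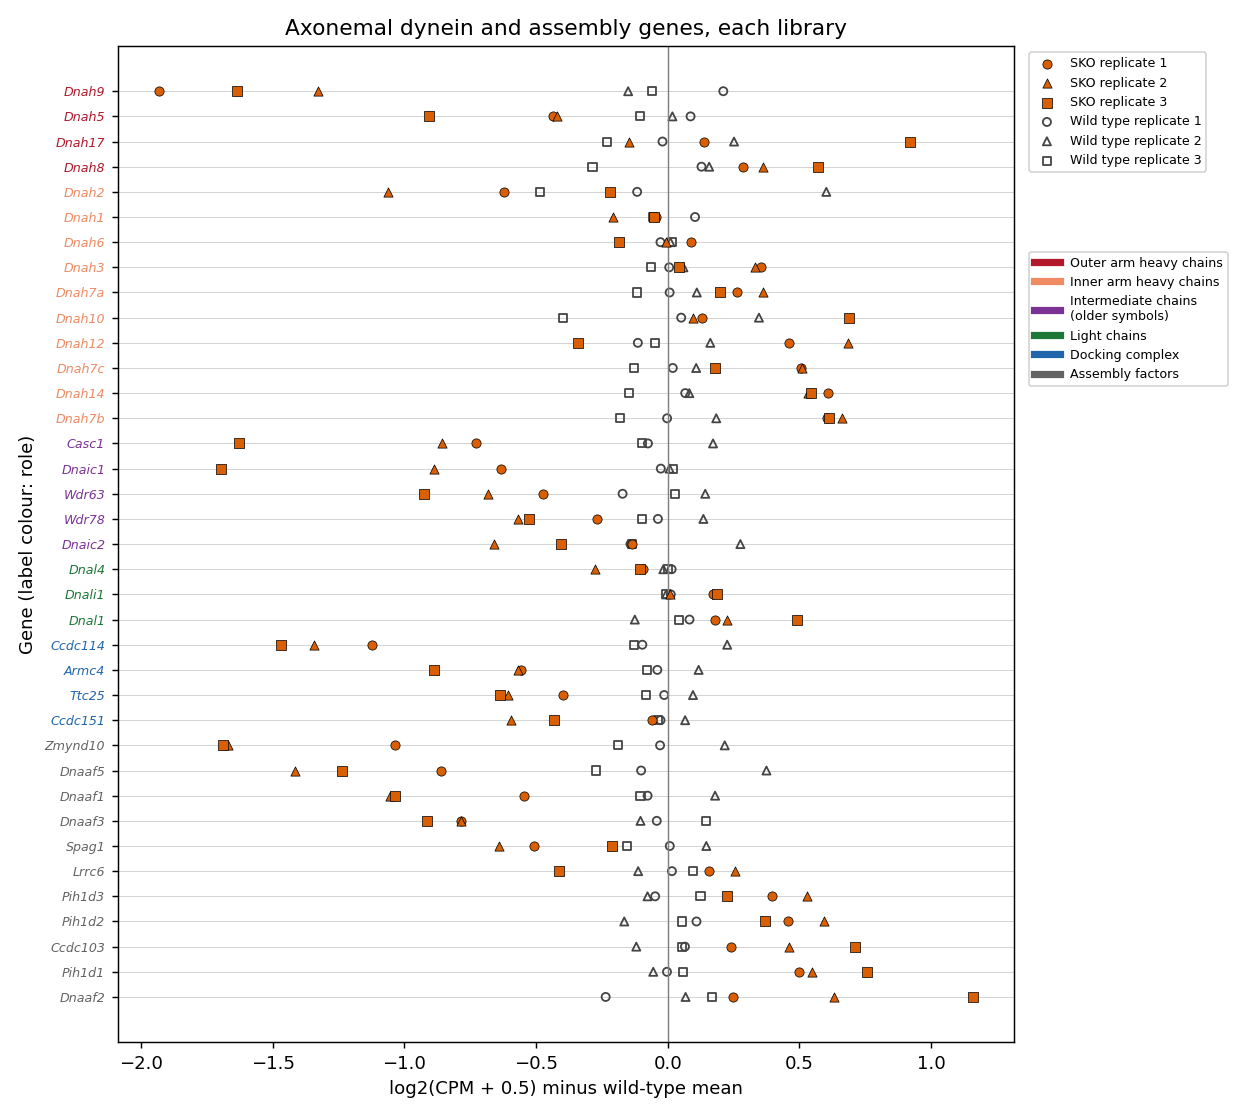
Difference of each library's log2(CPM + 0.5) from the wild-type mean of that gene (x axis) for the 32 members and 5 intermediate chains listed under older symbols (y axis, coloured by role), with SKO libraries filled and wild-type libraries open. All 3 SKO libraries lie left of all wild-type libraries for 12 members, among them Dnah9, the 4 docking genes, Zmynd10 and Dnaaf5. They lie right of all wild-type libraries for 11 members, among them Dnah14, Dnah7b and Pih1d1. Of all tested genes, 28.3% and 27.3% had such groups. Dnah17 and Dnah12 are spread by SKO replicate 3.

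In 6 of the 14 called members the call at an adjusted p under 0.05 stood in every one of 16 alternative fits (15 for Dnah9): Dnah9, Ccdc114, Armc4, Zmynd10 and Dnaaf5, which were lower, and Pih1d1, which was higher. A threshold of at least a 2-fold change left 4 of the 14, all lower, and Armc4 and Pih1d1 were under it. At that threshold 13.0% of all tested genes were lower and 11.7% higher, beside 4 and 0 of the 32 members. Of the 6, 4 had a start region in the RefSeq promoter table (GRCm38.p6) of which 10 to 22 bases lay inside the annotated gene. Those regions are shown so that these members can be located. Each runs from 250 bases before to 10 bases after the RefSeq transcript start, 5′ to 3′ on the gene's own strand. Capitals mark a match to GTTGCC, a core of the X-box bound by RFX factors, on either strand. Dnah9 lies at chr11:66168542-66168801 on the minus strand, and Zmynd10 at chr9:107547054-107547313, Dnaaf5 at chr5:139149985-139150244 and Pih1d1 at chr7:45154053-45154312 lie on the plus strand.
Dnah9: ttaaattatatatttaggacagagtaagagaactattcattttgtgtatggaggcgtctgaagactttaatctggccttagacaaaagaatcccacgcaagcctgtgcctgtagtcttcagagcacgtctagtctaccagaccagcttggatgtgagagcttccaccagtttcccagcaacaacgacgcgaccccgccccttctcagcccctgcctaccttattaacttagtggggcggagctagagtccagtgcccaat
Zmynd10: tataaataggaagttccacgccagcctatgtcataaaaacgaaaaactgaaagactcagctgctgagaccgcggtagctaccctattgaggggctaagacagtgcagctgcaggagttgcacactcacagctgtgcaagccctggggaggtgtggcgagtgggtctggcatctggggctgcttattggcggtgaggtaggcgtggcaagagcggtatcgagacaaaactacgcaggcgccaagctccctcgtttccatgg
Dnaaf5: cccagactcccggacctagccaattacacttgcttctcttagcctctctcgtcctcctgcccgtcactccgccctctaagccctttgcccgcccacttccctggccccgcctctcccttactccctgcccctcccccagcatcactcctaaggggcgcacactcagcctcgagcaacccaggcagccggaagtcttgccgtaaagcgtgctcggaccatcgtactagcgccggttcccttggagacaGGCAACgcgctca
Pih1d1: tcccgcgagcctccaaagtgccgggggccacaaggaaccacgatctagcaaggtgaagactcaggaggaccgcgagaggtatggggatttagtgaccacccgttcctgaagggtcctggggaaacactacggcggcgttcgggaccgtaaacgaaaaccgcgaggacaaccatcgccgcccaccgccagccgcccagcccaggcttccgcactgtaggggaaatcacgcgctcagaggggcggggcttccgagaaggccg

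Among the 4 outer arm heavy chains, the motile cilium chain Dnah9 fell and the sperm chains did not pass the test. Dnah9 (chromosome 11, 65831282 to 66168551, minus strand) had 0.89, 1.61 and 1.21 CPM in SKO replicates 1 to 3 and 5.64, 4.28 and 4.58 CPM in wild type. All 3 SKO libraries were below all wild-type libraries, and the log2 fold change was -1.96 ± 0.28 (SE; edgeR adjusted p = 0.00059). The level rested on 43 to 87 counts per SKO library and 251 to 331 per wild-type library. Dnah5, the partner heavy chain of motile cilia, had 1.76, 1.78 and 1.13 CPM in SKO and 2.74, 2.59 and 2.34 CPM in wild type. The groups did not overlap, but its log2 difference of -0.72 ± 0.28 missed the threshold (edgeR adjusted p = 0.064).

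The summed level of multiciliated epithelium markers was also lower in SKO. It was 9.41 to 14.9 CPM in SKO and 20.7 to 22.8 CPM in wild type over 6 genes in the table. Of 5 tested genes, 2 were lower and 0 higher, where 20.9% of all tested genes were lower and 21.2% higher. The most abundant of them was Krt8, a keratin of simple epithelia, at 4.37 ± 0.44 CPM in SKO and 10.2 ± 0.71 CPM in wild type. Foxj1, the master regulator of motile cilium genes, is on this list and did not pass (log2 fold change -0.18, edgeR adjusted p = 0.76). Ccno and Gmnc did not pass either, at -0.56 and -0.59 (edgeR adjusted p = 0.20 and 0.21). The libraries come from sorted round spermatids, a step meant to remove such cells, and the part of these markers in the Dnah9 result was not tested. Single markers of other cell types fell as well, among them Adgre1 of macrophages at -2.77 and Kdr of endothelium at -2.06 on the log2 scale. In their lists, 1 of 5 tested macrophage markers and 1 of 4 peritubular and endothelial markers were lower, and 1 of each list was higher. Mcidas, Cdhr3 and Cdh1 are not analysed here.

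Dnah8, the sperm outer arm heavy chain of the gamma type, had 109.7, 116.0 and 134.0 CPM in SKO and 98.4, 100.4 and 73.8 CPM in wild type. All SKO libraries were above the wild-type libraries, and the log2 difference of 0.40 ± 0.16 did not pass (edgeR adjusted p = 0.067). Dnah17, its partner in the sperm arm, had 57.2, 46.8 and 98.6 CPM in SKO and 51.2, 61.9 and 44.1 CPM in wild type. SKO replicate 3 was the highest library and SKO replicates 1 and 2 lay inside the wild-type range, with a log2 difference of 0.37 ± 0.26 (edgeR adjusted p = 0.29). Per kilobase of transcript, the sperm chains were far above the cilium chains in wild type, at 5.45 ± 0.89 RPKM for Dnah8 and 3.50 ± 0.60 RPKM for Dnah17, against 0.350 ± 0.052 RPKM for Dnah9 and 0.164 ± 0.013 RPKM for Dnah5. Dnah11, the fifth outer arm heavy chain, is not analysed here.

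Of the 10 inner arm heavy chains, 2 (20%) were higher in SKO and none was lower. Over all tested genes, 21.2% were higher and 20.9% lower. Dnah14 (chromosome 1, 181576559 to 181815774, plus strand) had 85.2, 80.9 and 81.4 CPM in SKO and 58.4, 59.0 and 50.2 CPM in wild type. Its SKO libraries lay close together and all above wild type, with a log2 difference of 0.56 ± 0.13 (edgeR adjusted p = 0.0073). Dnah7b (chromosome 1, 46066315 to 46373546, plus strand) had 50.5, 52.6 and 50.8 CPM in SKO and 33.0, 37.6 and 29.1 CPM in wild type. The groups again did not overlap, and the log2 fold change was 0.63 ± 0.15 (edgeR adjusted p = 0.0071). Both calls were lost with library totals as the only scaling, at log2 fold changes of 0.32 and 0.39 (edgeR adjusted p = 0.077 and 0.061).

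Dnah7b has near copies, Dnah7a and Dnah7c, on the same chromosome. Between 10.4% and 13.3% of the 150-base windows of each of these transcripts occur in another gene, so some reads cannot be assigned to one copy. Dnah7c had 37.9, 38.0 and 30.1 CPM in SKO and 26.9, 28.6 and 24.3 CPM in wild type, a log2 difference of 0.41 ± 0.16 (edgeR adjusted p = 0.058). Dnah7a had 55.8, 59.7 and 53.2 CPM in SKO and 46.6, 50.1 and 42.7 CPM in wild type, a log2 difference of 0.28 ± 0.14 (edgeR adjusted p = 0.13). All 3 copies had their SKO libraries above their wild-type libraries. Whether the copies differed from each other was not tested.

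Dnah1, an inner arm heavy chain needed for the sperm flagellum, had 77.3, 68.9 and 76.8 CPM in SKO and 85.7, 77.1 and 76.6 CPM in wild type, with overlapping groups and a log2 difference of -0.10 ± 0.13 (edgeR adjusted p = 0.56). Dnah3 had the highest level per kilobase of any heavy chain in wild type, 7.84 ± 0.34 RPKM. Its libraries had 122.8, 120.9 and 99.0 CPM in SKO and 96.4, 100.1 and 91.8 CPM in wild type, a log2 difference of 0.25 ± 0.13 (edgeR adjusted p = 0.16). Only SKO replicate 3 overlapped wild type. Exons of Lyrm1 on the opposite strand overlap 10.5% of its exon bases, and the strand setting of the counting is not given.

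Inner arm f is built on the heavy chains DNAH2 and DNAH10. Dnah2 had 24.2, 17.7 and 32.2 CPM in SKO and 34.6, 57.3 and 26.7 CPM in wild type, a log2 difference of -0.68 ± 0.30 (edgeR adjusted p = 0.092). Dnah10 had 20.7, 20.1 and 30.6 CPM in SKO and 19.5, 24.1 and 14.2 CPM in wild type, a log2 difference of 0.31 ± 0.23 (edgeR adjusted p = 0.32). Wild-type replicate 2 was the highest and wild-type replicate 3 the lowest wild-type library for both, and their groups overlapped. Dnah12 had 110.8, 129.5 and 63.2 CPM in SKO and 74.2, 89.9 and 77.7 CPM in wild type, so that SKO replicate 3 was the lowest of the 6 libraries. Dnah6 differed least of the heavy chains, at 35.7, 33.5 and 29.5 CPM in SKO and 33.0, 33.9 and 34.01 CPM in wild type.

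Several heavy chain calls changed when SKO replicate 3 was left out. Without it, Dnah12, Dnah3 and Dnah7c were higher, at log2 fold changes of 0.54, 0.31 and 0.48 (edgeR adjusted p = 0.0069, 0.028 and 0.015), and Dnah2 was lower at -0.95 (edgeR adjusted p = 0.027). Dnah7c and Dnah2 were also called in 3 other alternative fits each, and Dnah12 and Dnah3 in none. Counts of heavy chains then came to 5 higher and 2 lower, and counts over all members to 9 higher and 10 lower. Over all 20262 genes of that fit, 4329 were higher and 4766 lower. Across the 14 heavy chains, the difference of SKO replicate 3 from the mean of SKO replicates 1 and 2 was larger where the transcript had more G and C, with Pearson's r = 0.81 and Spearman's rho = 0.81, as a description of genes that share the same libraries. Over 13247 coding genes the same r was 0.28. Of the 5 heavy chains above 50% GC, Dnah17, Dnah10 and Dnah2 were highest in SKO replicate 3 among the SKO libraries, and Dnah1 and Dnah9 were not. Of the 9 with less GC, Dnah12, Dnah7c, Dnah7a, Dnah3, Dnah6 and Dnah5 were lowest there among the SKO libraries. Dnah8 was highest there, and Dnah14 and Dnah7b lay between SKO replicates 1 and 2. The part of GC content in these values was not tested.

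Intermediate chains sit at the arm base, and the table lists them under older symbols that the naming rule does not reach. They were looked up after the symbols of the table had been seen, and are set beside the members as Dnaic1 (Dnai1), Dnaic2 (Dnai2), Wdr63 (Dnai3), Wdr78 (Dnai4) and Casc1 (Dnai7). Of these 5 genes, 4 were lower and none higher, with a median log2 fold change of -0.69, where 20.9% of all tested genes were lower. Dnaic1, of the outer arm, had 126.2, 105.6 and 60.1 CPM in SKO and 192.3, 196.8 and 198.5 CPM in wild type. Its wild-type libraries lay within a narrow range and all SKO libraries were lower, a log2 difference of -1.01 ± 0.23 (edgeR adjusted p = 0.0067). Dnaic2, its outer arm partner, had 87.6, 60.8 and 72.6 CPM in SKO and 87.2, 116.6 and 87.6 CPM in wild type, and its log2 difference of -0.40 ± 0.18 did not pass (edgeR adjusted p = 0.099).

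Casc1 had 58.7, 53.7 and 31.3 CPM in SKO and 92.8, 110.2 and 91.4 CPM in wild type, a log2 difference of -1.03 ± 0.22 (edgeR adjusted p = 0.0048). Wdr63, an inner arm f intermediate chain, had 96.4, 83.3 and 70.3 CPM in SKO and 119.0, 148.1 and 136.8 CPM in wild type, a log2 difference of -0.69 ± 0.16 (edgeR adjusted p = 0.0060). SKO replicate 3 was the lowest library for Dnaic1, Casc1 and Wdr63, and no library of one genotype overlapped the other. Wdr78 was lower at -0.46 ± 0.14 (edgeR adjusted p = 0.026). At an adjusted p under 0.05, the calls of Dnaic1, Casc1 and Wdr63 stood in all 16 alternative fits, and that of Wdr78 in 9. Wdr63 and Wdr78 changed by less than 2-fold. The same lookup also found the assembly factor Wdr92 (Dnaaf10), which is not in the figures. Its groups overlapped, with a log2 difference of 0.002 ± 0.18 (edgeR adjusted p = 0.99).

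None of the 3 light chains passed the test. Dnal4, an outer arm light chain, had 200.02, 176.4 and 198.5 CPM in SKO and 215.9, 211.3 and 214.0 CPM in wild type. Its groups did not overlap, yet the difference was small, with a log2 difference of -0.16 ± 0.12 (edgeR adjusted p = 0.31). Dnali1, a light chain of single-headed inner arms, had 405.7, 362.3 and 410.6 CPM in SKO and 363.1, 358.6 and 358.8 CPM in wild type, a log2 difference of 0.13 ± 0.12 (edgeR adjusted p = 0.41). Dnal1, which binds the motor of an outer arm heavy chain, had 52.7, 54.4 and 65.5 CPM in SKO and 49.2, 42.6 and 47.9 CPM in wild type, a log2 difference of 0.31 ± 0.15 (edgeR adjusted p = 0.12).

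Of the 4 docking complex genes, 3 were lower in SKO and none higher, with a median log2 fold change of -0.61, where 20.9% of all tested genes were lower. Ccdc114 (ODAD1; chromosome 7, 45924072 to 45948963, plus strand) had 12.0, 10.2 and 9.35 CPM in SKO and 25.0, 31.3 and 24.4 CPM in wild type. Every SKO library was under the lowest wild-type library, with a log2 difference of -1.35 ± 0.17 (edgeR adjusted p = 0.00031). Armc4 (ODAD2) had 109.1, 108.2 and 86.6 CPM in SKO and 156.4, 174.4 and 152.3 CPM in wild type, a log2 difference of -0.67 ± 0.14 (edgeR adjusted p = 0.0041). Ttc25 (ODAD4) had 199.2, 172.3 and 168.5 CPM in SKO and 260.2, 280.7 and 248.0 CPM in wild type, a log2 difference of -0.55 ± 0.13 (edgeR adjusted p = 0.0070).

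Ccdc151 (ODAD3) lay lower in each SKO library too, at 56.7, 39.0 and 43.7 CPM against 58.1, 62.0 and 57.7 CPM, but did not pass, with a log2 difference of -0.35 ± 0.16 (edgeR adjusted p = 0.11). SKO replicate 1 was nearly level with wild type for this gene, and without that library the log2 fold change was -0.54 (edgeR adjusted p = 0.024). All 4 docking genes thus had non-overlapping groups with SKO lower, where 28.3% of all tested genes had that pattern. Of these 4 genes, 3 were lower with DESeq2 or upper quartile factors, 4 with library totals only and 2 after correction for transcript length and GC content. In the same order, these fits called 4201, 3926, 5666 and 4078 of all 19776 genes lower.

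Assembly factors went in both directions, with 5 of 11 lower and 3 higher, beside 20.9% lower and 21.2% higher over all tested genes. The 4 largest decreases were in Zmynd10, Dnaaf5, Dnaaf1 and Dnaaf3. Zmynd10, a co-chaperone of heavy chain folding (chromosome 9, 107547298 to 107551319, plus strand), had 68.9, 44.2 and 43.6 CPM in SKO and 138.9, 164.8 and 124.4 CPM in wild type. Its SKO mean was 36.6% of the wild-type mean, with a log2 difference of -1.45 ± 0.20 (edgeR adjusted p = 0.00052). Dnaaf5, a HEAT-repeat assembly factor (chromosome 5, 139150223 to 139186510, plus strand), had 18.8, 12.7 and 14.4 CPM in SKO and 32.3, 45.1 and 28.6 CPM in wild type. The log2 difference was -1.21 ± 0.22 (edgeR adjusted p = 0.0019), and SKO replicate 1 was the highest SKO library for both genes.

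Dnaaf1, a leucine-rich repeat assembly factor, was the most abundant member per kilobase in wild type, at 337 ± 37.6 RPKM. It had 648.8, 456.6 and 462.2 CPM in SKO and 899.0, 1074 and 882.5 CPM in wild type, a log2 difference of -0.87 ± 0.17 (edgeR adjusted p = 0.0026). Exons of Taf1c on the opposite strand overlap 20.7% of its exon bases. Among the other called members, the largest such overlaps were 12.6% in Dnaaf3, 10.6% in Dnaaf5, 10.1% in Zmynd10 and 7.4% in Pih1d1. Dnaaf3 had 20.1, 20.1 and 18.3 CPM in SKO and 33.9, 32.5 and 38.7 CPM in wild type, a log2 difference of -0.85 ± 0.14 (edgeR adjusted p = 0.0014). Dnaaf1 and Dnaaf3 both lost the call after the correction for length and GC content, at -0.36 and -0.39 (edgeR adjusted p = 0.071 and 0.073). Spag1, a tetratricopeptide repeat factor, had 34.7, 31.6 and 42.7 CPM in SKO and 49.8, 54.9 and 44.4 CPM in wild type. It was only just called, at -0.45 ± 0.16 (edgeR adjusted p = 0.047), and lost the call in 11 of 16 alternatives.

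The higher assembly factors were the PIH proteins Pih1d1 and Pih1d2, which link clients to chaperones, and Ccdc103. Pih1d1, a subunit of the R2TP co-chaperone (chromosome 7, 45154303 to 45160065, plus strand), had 313.7, 324.8 and 376.0 CPM in SKO and 221.6, 213.7 and 231.2 CPM in wild type. The groups did not overlap, with a log2 difference of 0.61 ± 0.12 (edgeR adjusted p = 0.0038). Pih1d2 had 144.0, 158.1 and 135.5 CPM in SKO and 113.0, 93.3 and 108.8 CPM in wild type, a log2 difference of 0.47 ± 0.13 (edgeR adjusted p = 0.018). Ccdc103, a small protein that binds axonemal microtubules, had 119.1, 138.7 and 165.2 CPM in SKO and 105.4, 92.7 and 104.6 CPM in wild type, a log2 difference of 0.48 ± 0.15 (edgeR adjusted p = 0.027). Pih1d2 and Ccdc103 each lost the call in 6 of 16 alternatives, library totals among them, where their log2 fold changes were 0.23 and 0.25 (edgeR adjusted p = 0.16 and 0.23).

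The other 3 assembly factors did not pass. Pih1d3, the PIH protein needed for dynein arms in mouse sperm and encoded in 1 exon, had 36.8, 40.4 and 32.6 CPM in SKO and 26.9, 26.4 and 30.4 CPM in wild type, a log2 difference of 0.39 ± 0.15 (edgeR adjusted p = 0.058). Lrrc6, a partner of Zmynd10, had 338.2, 362.9 and 227.7 CPM in SKO and 307.0, 280.8 and 324.6 CPM in wild type, so that SKO replicate 3 was the lowest of all 6 libraries and the other SKO libraries the highest. Dnaaf2 was the least abundant member, at 0.72, 1.09 and 1.802 CPM in SKO and 0.37, 0.58 and 0.66 CPM in wild type. Its log2 difference of 1.16 ± 0.46 did not pass (edgeR adjusted p = 0.070), and 60.8% of its 150-base windows occur in other annotated genes, so these reads may not be its own.

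**Figure D2:**
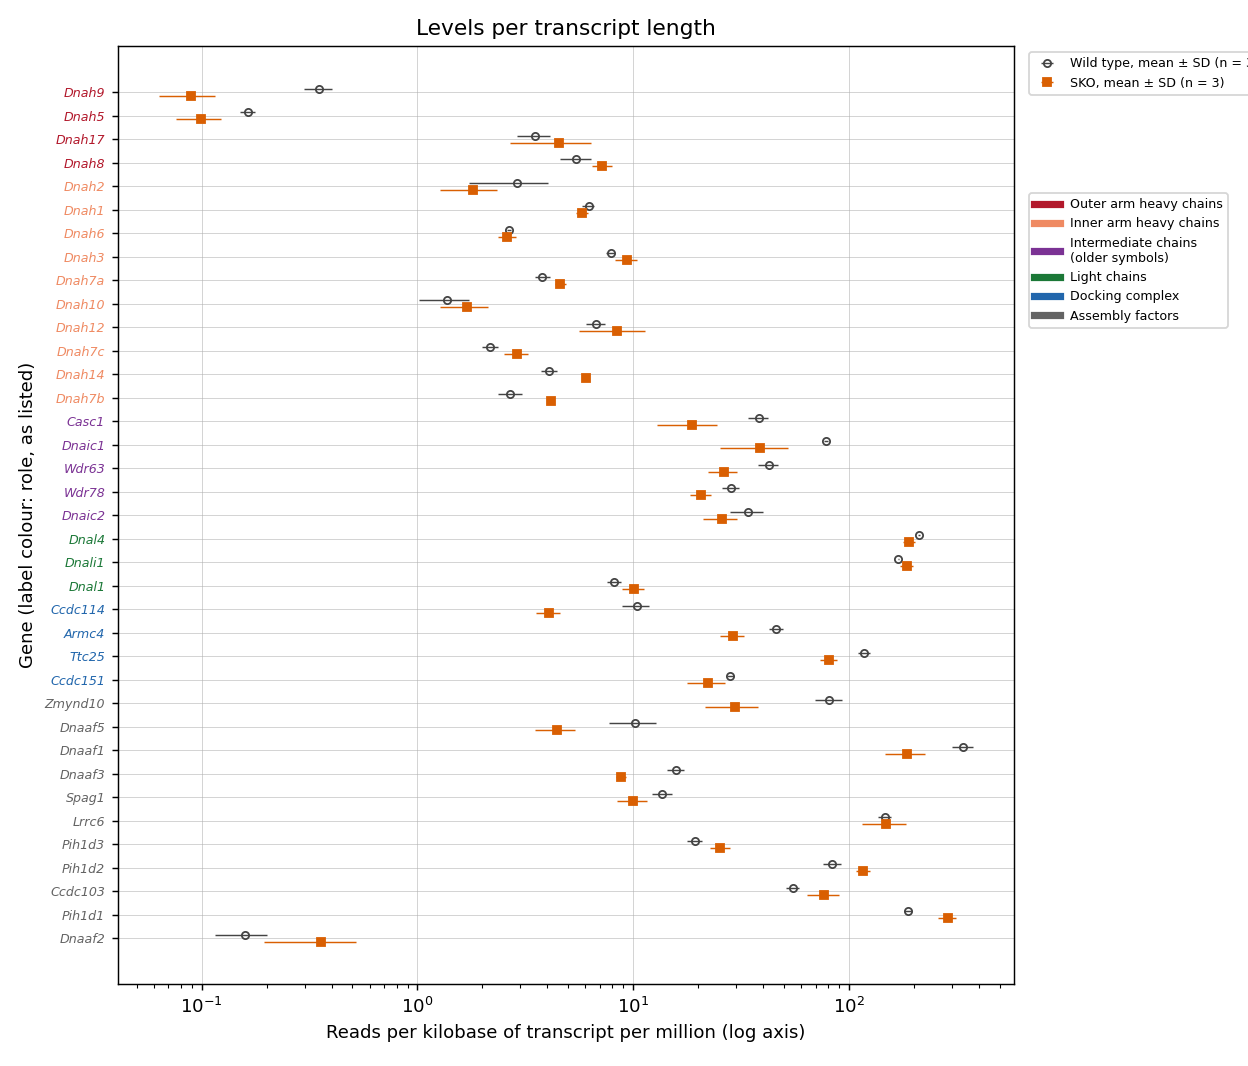
Level per transcript length (x axis, RPKM, reads scaled to library size and kilobases of transcript, log axis; mean ± SD, n = 3) of each gene (y axis, coloured by role) in wild type and SKO. Heavy chains lie between 0.164 and 7.84 RPKM in wild type, and the members with the highest levels are Dnaaf1 at 337, Dnal4 at 211, Pih1d1 at 187 and Dnali1 at 169 RPKM.

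Per kilobase, the wild-type order of the members began with Dnaaf1, followed by Dnal4 at 211 ± 2.33 RPKM, Pih1d1 at 187 ± 7.37 RPKM, Dnali1 at 169 ± 1.18 RPKM and Lrrc6 at 146 ± 10.6 RPKM. Among heavy chains the order began with Dnah3, Dnah12 at 6.71 ± 0.69 RPKM, Dnah1 at 6.199 ± 0.40 RPKM and Dnah8. Dnah12, Dnah1 and Dnah8 lay within their spread of each other. In SKO, Pih1d1 at 285 ± 28.0 RPKM stood above Dnaaf1 at 185 ± 38.8 RPKM. These levels use 1 transcript per gene for the length, and recovery of long messages by the amplification was not measured.

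Change was also read by transcript length and GC content over all coding genes. The 122 tested coding genes over 12 kb had a median log2 fold change of 0.06, with 15.6% higher and 21.3% lower. The 14 heavy chains are among these genes. The 5132 genes of 2 to 4 kb, a class that holds many docking, intermediate and assembly genes, had a median of -0.22, with 13.2% higher and 28.4% lower. Genes of up to 1 kb had a median of 0.81. Log2 fold changes fell with GC content as well, from a median of 0.43 in genes of up to 40% GC to -0.25 above 55%. The 17 members above 50% GC had 2 higher and 7 lower with a median of -0.35, and the 15 others had 3 higher and 2 lower with a median of 0.31. Of all tested coding genes, 17.9% were higher and 25.9% lower at 50 to 55% GC, and 13.3% and 29.9% above 55%. In the classes of up to 40%, 40 to 45% and 45 to 50% GC, 37.1%, 31.5% and 22.4% were higher. In the same order, 11.2%, 14.5% and 20.6% were lower.

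**Figure D3:**
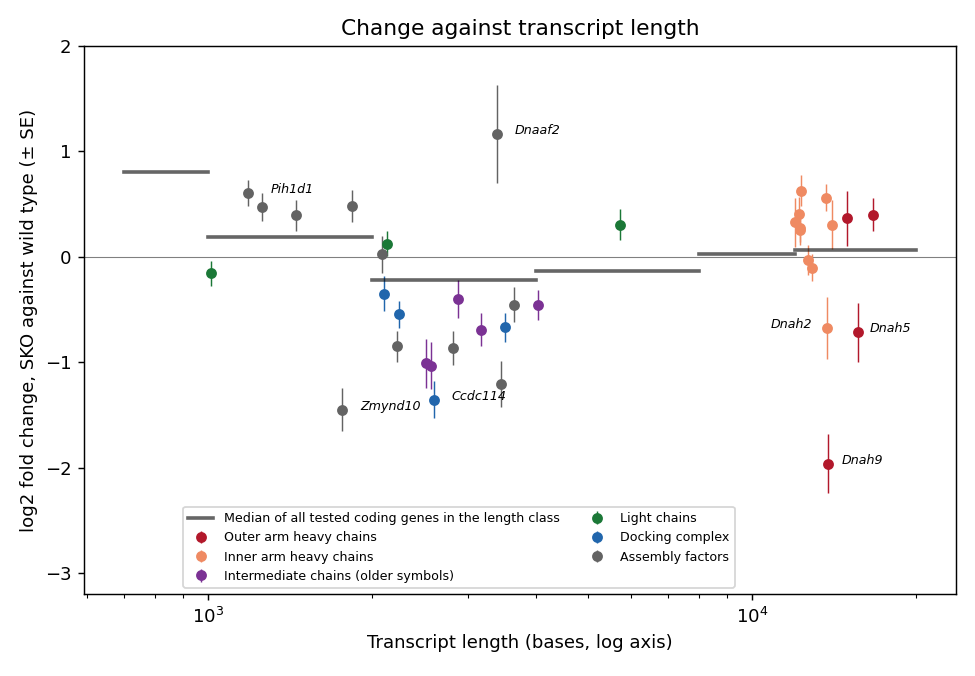
Log2 fold change of SKO against wild type ± SE (y axis) against transcript length in bases (x axis, log axis) for each gene, coloured by role, with horizontal lines at the median of all tested coding genes in each length class. Ccdc114 and Zmynd10 lie well below the lines of their classes, at -1.35 and -1.45, and Dnah9 at -1.96 lies apart from the other heavy chains.

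A per-library correction for transcript length and GC content gave 10 members higher and 6 lower. Over all 19776 tested genes, it gave 4020 higher and 4078 lower. Dnah9 (-1.85), Zmynd10 (-1.21), Ccdc114 (-0.89), Dnaaf5 (-0.64) and Armc4 (-0.58) were still lower, and Pih1d1, Ccdc103, Dnah7b, Dnah14 and Pih1d2 still higher. Besides Dnaaf1 and Dnaaf3, calls were lost for Ttc25 at -0.25 and Spag1 at -0.22 (edgeR adjusted p = 0.065 and 0.27). Dnah8, Dnah17, Dnah10, Dnali1 and Dnaaf2 were called higher after correction, with Dnah8 at 0.40 and Dnah17 at 0.60 (edgeR adjusted p = 0.021 and 0.0069), and Dnal4 was called lower at -0.31. Pih1d3 went from 0.39 to -0.28 without passing either way. The intermediate chains Dnaic1, Wdr63 and Casc1 were lower with and without the correction.

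**Figure D4:**
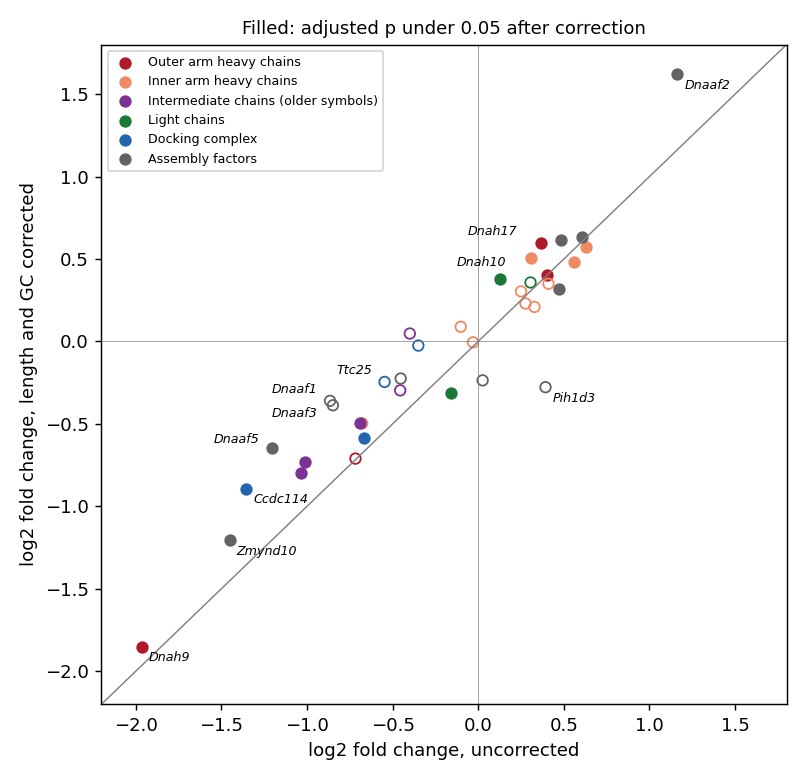
Log2 fold change after the length and GC correction (y axis) against the uncorrected value (x axis), coloured by role and filled where the corrected value passed an adjusted p under 0.05; the diagonal marks equal values. Most lower members lie above the diagonal, so their decrease was smaller after correction, while Dnah9 moved only from -1.96 to -1.85.

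Genes that work beside these members were read from lists of light chains shared with cytoplasmic dynein and arm-associated proteins, inner arm bases and regulators, other assembly chaperones, cytoplasmic dynein with dynactin, and transcription factors of cilia and spermatids. The 18 shared light chain and arm-associated genes had a median of 0.37, and 8 were higher and 1 lower. Over all tested genes, 21.2% were higher and 20.9% lower. Of 13247 tested coding genes, 2913 were higher and 2943 lower. Of the 12654 on autosomes, 2508 were higher and 2936 lower. Called coding genes outside the autosomes were therefore nearly all higher. What this adds to the value of Dynlt3, given next, was not tested. Dynlt3, an X-linked light chain gene, was 26.9 ± 3.93 CPM in wild type against 107.9 ± 19.5 CPM in SKO, and Dynll1, the LC8 light chain of both dynein classes, was 665.8 ± 32.5 and 1316 ± 135 CPM. Efcab1, the outer arm calcium sensor calaxin, was 3.597 ± 0.35 CPM in wild type against 0.54 ± 0.44 CPM in SKO, a log2 difference of -2.71 ± 0.49 (edgeR adjusted p = 0.0019). With library totals only, this list had 5 higher and 3 lower, beside 2831 higher and 5666 lower of all 19776 genes. After the length and GC correction it had 7 higher and 2 lower, and its median was 0.22. That correction gave 4020 higher and 4078 lower of all 19776 genes.

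Of 11 inner arm base and regulator genes, 2 (18.2%) were higher and 3 (27.3%) lower, beside 21.2% and 20.9% of all tested genes. Tcte1, a subunit of the nexin-dynein regulatory complex, was 61.001 ± 15.6 CPM in wild type against 22.9 ± 10.7 CPM in SKO, and Drc1 of the same complex was 119.8 ± 17.0 and 68.8 ± 9.46 CPM. Cfap43 and Cfap44, which tether an inner arm, were higher by 0.41 and 0.40 on the log2 scale, calls that library totals did not keep. Of 10 other assembly genes, 2 (20%) were higher and 1 (10%) lower. Lrrc56, a factor for outer arm transport, fell from 84.6 ± 13.7 to 13.1 ± 5.00 CPM, a log2 difference of -2.69 ± 0.28 (edgeR adjusted p = 0.00011), the lowest value of this list. The chaperone genes Hsp90aa1 and Ptges3 were higher by 0.46 and 0.69 on the log2 scale, calls that were also lost with library totals only.

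Cytoplasmic dynein and dynactin, which move cargo along microtubules, had a median of -0.05 over 22 genes, 4 of them higher and 4 lower. Those shares, 18.2% each, stand beside 21.2% higher and 20.9% lower over all tested genes. Pafah1b1 and Dctn3 were higher by 0.96 and 0.70 on the log2 scale, and Dync1i1 and Wdr34 had log2 fold changes of -0.80 and -0.61, which the length and GC correction brought to -0.49 and -0.26 without a call. Of 8 transcription factors, Rfx4 was lower at -0.78 ± 0.16 (edgeR adjusted p = 0.0041) and Crem, the activator of many spermatid genes, was higher at 0.38 ± 0.13 (edgeR adjusted p = 0.041), or 0.13 without a call under library totals. Rfx2, an activator of cilium genes in spermatids, had a log2 fold change of 0.02 and did not pass, but was called higher at 0.54 after the length and GC correction (edgeR adjusted p = 0.0042). The same correction called Rfx1 higher at 0.94 and Rfx3 lower at -0.65 (edgeR adjusted p = 0.0029 and 0.016). Uncorrected, these 2 genes did not pass, though Rfx3 was called lower at -0.73 with library totals only (edgeR adjusted p = 0.016).

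**Figure D5:**
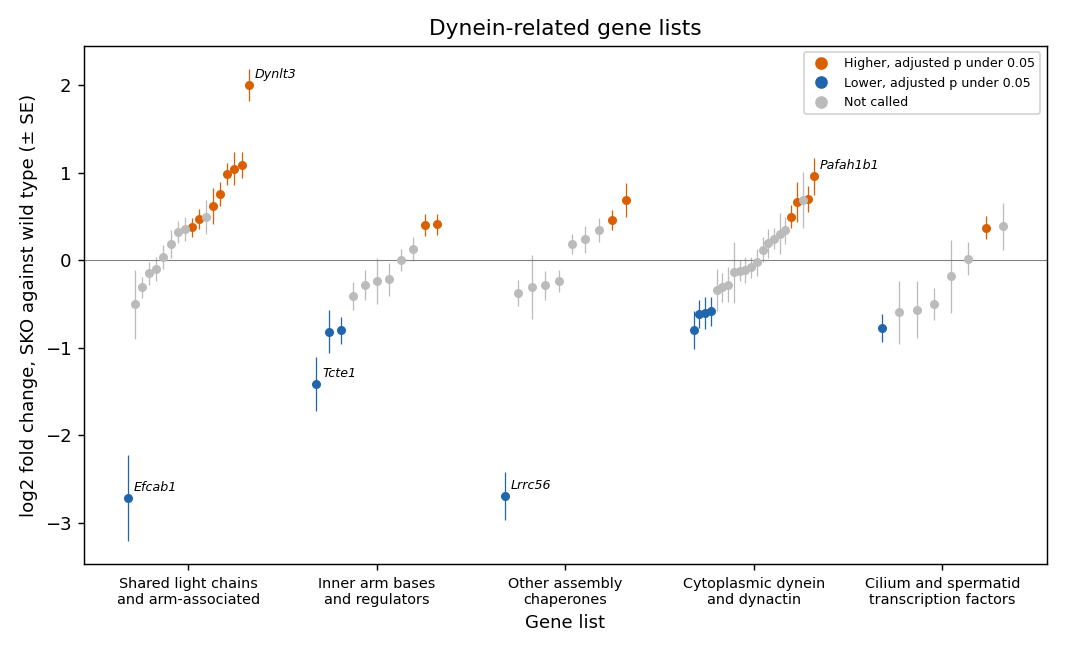
Log2 fold change of SKO against wild type ± SE (y axis) for each tested gene of the 5 related lists (x axis), coloured by call at an edgeR adjusted p under 0.05. Shared light chain and arm-associated genes lie mostly above 0, with the X-linked Dynlt3 at 2.00. Efcab1 and Lrrc56 are the lowest points at -2.71 and -2.69.

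RefSeq promoter windows, from 250 bases before to 50 bases after the start, were found for 26 of the 32 members, and Dnah3, Dnaaf1, Ttc25, Spag1, Lrrc6 and Armc4 had none matched. GTTGCC on either strand occurred in 9 of the 26 (34.6%), against 14.1% of 27025 genes in the table. The 9 were Dnaaf5, Zmynd10, Pih1d3, Dnah7a, Dnah7b, Dnah7c, Dnah10, Ccdc103 and Dnaaf2. By call, the motif was in 2 of 5 higher, 2 of 5 lower and 5 of 16 uncalled members with a window. In Dnaaf5 it began 3 bases before the start, in the stretch shown above, and in Zmynd10 it began 39 bases after the start, beyond the stretch shown. TGACGTCA, the full cAMP response element, was in 1 of the 26, Dnah6, and in 2.03% of all genes.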

How the data were processed

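The authors deposited raw counts per gene, 1 column per library, and each column was matched to its label by genotype and number. Per the submitters' processing notes, the reads passed FastQC and Trim Galore (0.6.4), were aligned to GRCm38 (mm10) with HISAT2 (2.0.5), and were counted by featureCounts (Subread, 1.5.0-p3). With annotation release, strand setting and handling of multi-mapping reads not given in the sources used here, antisense and near-identical genes cannot be separated. Smart-seq2 has no molecular identifiers, so counts are not independent molecules.

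edgeR 4.0.16 (R 4.3.3) was run on all genes with filterByExpr defaults (minimum counts 10 and 15), TMM factors, genotype alone as the model and a 2-sided quasi-likelihood test, and p-values over 19776 genes were adjusted by Benjamini-Hochberg. SE is the absolute log2 change over the root of F. Lengths and GC content came from the coding transcript of GENCODE M21 (GRCm38) with the longest coding sequence, and RPKM is CPM per kilobase of it. The members, role groups and related lists were chosen with earlier results of these data known. Full values were given for members called with an absolute log2 fold change of at least 1, up to 3 called members per direction and role with the lowest adjusted p, the most abundant per role, the known sperm and cilium arm chains, and further members for completeness; related lists show up to 2 genes per direction, plus Rfx1, Rfx2 and Rfx3, which were named after their values were seen. The alternatives were limma-voom (limma 3.58.1), DESeq2 (1.42.0), scaling by DESeq2 size factors, by upper quartiles or by library totals, other filters and thresholds, a length and GC loess correction, a replicate block and each library left out. On simulated counts for this comparison (19426 genes, 200 changed), edgeR recovered 32% of 2-fold and 80% of 4-fold changes, and 11.8% of its calls were unchanged genes. In the data 42.0% of genes were called, and the adjusted p depends on how many genes change. The simulated recovery therefore cannot be read as the share of changes found in the data.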

Additional observations from a re-analysis of the deposited data

How the results depend on the processing

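No member's called direction reversed under any of the 16 alternative fits. Counts of members higher and lower were 5 and 9, where 4185 and 4127 of all 19776 genes were higher and lower. Members higher were 8 with upper quartile factors (4388 of 19776 genes) and 1 with library totals only (2831 of 19776 genes). They were 8 of 29 with at least 5 CPM in 3 libraries (3072 of 10279 genes) and 10 with the length and GC correction (4020 of 19776 genes). At an adjusted p under 0.01, 3 members were higher and 8 lower, and the share of all genes at that threshold was not counted. When at least a 2-fold change was also asked, 0 members were higher and 4 lower, beside 11.7% and 13.0% of all genes. Leaving out 1 library gave 3 to 9 higher and 8 to 10 lower. The higher count was 3 when SKO replicate 2 or either of wild-type replicates 2 and 3 was left out, and 9 without SKO replicate 3. Over all genes, 3064 of 20220 were higher and 3025 lower without wild-type replicate 2, the fewest of these fits. The most were 4329 of 20262 higher and 4766 lower, without SKO replicate 3. The heavy chain median of 0.29 became 0.054 with library totals only and 0.16 to 0.37 with 1 library left out, and that of the other members went from -0.25 to -0.49 with library totals only and stayed negative in every fit that gave it. For other changes of call the cause was not tested. Dnah5, Dnah9 and Dnaaf2 did not reach 5 CPM in 3 libraries and had no value there. Of 18 members not called, 5 were called by no alternative.

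Same-numbered libraries did not deviate together (correlations -0.050, -0.102 and -0.078). The labels do not say whether they were prepared together, and with 3 libraries per genotype these correlations cannot decide it. With the replicate block 3 members were higher and 8 lower, and with the block and the length and GC correction together 9 were higher and 5 lower. Over all 19776 genes, the block gave 3552 higher and 3666 lower, and the block with the correction 3463 higher and 3646 lower.

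Runs of prolines in the proteins were not analysed here. Dnaaf2, Dnah9 and Dnah5 rest on 22 to 331 counts per library, which limits their precision.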
